A study of Mus musculus with 49 samples.

Results

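Acod1, Nos2, Ptgs2, Ptges, Arg1, Chil3, Retnla and Ido1 are enzymes and secreted proteins by which biologists read the activation state of macrophages. The 8 genes were listed by name, and all 8 were present among the 55487 genes of the count table. Their levels were followed in 49 libraries from 6 mice, in 6 organs, with and without an iron oxide nanoparticle treatment. All mice were HuHER2 transgenics, which express the human receptor gene HER2 that is amplified in many breast cancers, and they bore a palpable mammary tumor at treatment. Palpation began at 7 months of age, and the promoter that drives the transgene is not given in the sources used here. The 3 control mice received PBS, a salt buffer. The 3 treated mice were injected once, intravenously, with 5 mg Fe of BP, an iron oxide nanoparticle for which the labels give only this code. The design text places collection at day 7, whereas a treatment label gives 31 days.

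Bone marrow, liver, spleen, lymph node, lung and tumor of every mouse were sequenced as whole tissue, called bulk here, which gave 36 libraries in 12 groups of 3. From the BP mice a second section of the organs other than lung was dissociated, and a magnet retained the cells that had taken up or bound nanoparticles. These sorted cells, called nanoparticle-associated in the labels, were sequenced in groups of 3 for liver, spleen, bone marrow and tumor, and as 1 library for lymph node (from BP mouse 2). Bulk and sorted libraries therefore differ both in the cells they hold and in the digestion and sort that the sorted cells went through, and these cannot be told apart in this design. No PBS tissue was digested and sorted. In bulk tissue, fewer cells of a type and less RNA per cell cannot be told apart either.

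Library totals ran from 9362264 to 19734849 expected counts. Levels below are CPM, a gene's counts per 1000000 counts of its library, and 3 counts, the limit that a count of 0 allows, correspond to 0.152 to 0.32 CPM. The labelled organs carried their defining transcripts: in PBS mice 6 of 6 lung epithelial genes were higher in lung than in the mean of the other organs, 7 of 7 hepatocyte genes in liver, 9 of 9 neutrophil precursor genes in bone marrow and 6 of 6 mammary epithelial genes in tumor. Genes of the mitochondrial genome held 48.2 to 57.2% of the counts of sorted liver cells, 1.80 to 5.78% in the other sorted libraries and 5.67 to 7.06% in the bulk livers of BP mice. Of the bulk libraries, lymph node of PBS mouse 2 had the highest share (28.62%) and tumor of BP mouse 1 the next (19.45%). The other bulk lymph nodes held 5.80 to 11.55% and the other bulk tumors 3.06 to 8.33%. Replicates were separate mice, so in the comparisons of BP with PBS within an organ the p-values measure the spread between mice. The other fits hold more than 1 library of a mouse and treat these as independent.

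As background, macrophages that meet bacterial products or interferon gamma are known for a classical program. Acod1 encodes the mitochondrial enzyme that makes itaconate from the citric acid cycle intermediate cis-aconitate, Nos2 the inducible nitric oxide synthase, Ptgs2 the inducible cyclooxygenase and Ptges a prostaglandin E synthase that acts after it. Interleukin 4 and interleukin 13 are known for the alternative program, whose mouse markers are Arg1 (arginase, which competes with Nos2 for arginine), Chil3 (the chitinase-like protein Ym1) and Retnla (the resistin-like protein Fizz1). Ido1 encodes an enzyme that opens the tryptophan ring on the way to kynurenine and is induced by interferons. None of the 8 genes is made by macrophages alone: Arg1 is a urea cycle enzyme of hepatocytes, Ptgs2 is an immediate early gene of many cells, and Retnla is also known from fat and from lung.

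The bases just upstream of Acod1, Ptgs2, Chil3 and Retnla are shown, the members described most below for which the RefSeq table used here holds a stretch at the gene start, with Chil4, the close copy of Chil3, beside it. The sequences are RefSeq's (GRCm38.p6), read on the gene's strand from 5′ to 3′ and ending 1 base before the GENCODE gene start, from which positions are counted. Capitals mark a match to TTGCGCAA (the palindrome bound by C/EBP factors) or TTCNNNNGAA (the spacing typical of STAT6), each sought on both strands.
Acod1, chr14:103046762-103046976, plus strand: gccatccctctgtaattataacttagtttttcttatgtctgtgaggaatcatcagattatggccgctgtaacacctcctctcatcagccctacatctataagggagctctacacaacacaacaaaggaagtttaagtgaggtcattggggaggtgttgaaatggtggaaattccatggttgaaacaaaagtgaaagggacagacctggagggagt
Ptgs2, chr1:150099781-150100030, plus strand: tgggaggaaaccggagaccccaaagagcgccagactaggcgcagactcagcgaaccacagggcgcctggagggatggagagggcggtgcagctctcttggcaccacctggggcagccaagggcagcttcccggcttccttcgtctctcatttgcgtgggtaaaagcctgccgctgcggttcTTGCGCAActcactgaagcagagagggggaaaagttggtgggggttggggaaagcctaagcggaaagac
Chil3, chr3:106167565-106167814, minus strand: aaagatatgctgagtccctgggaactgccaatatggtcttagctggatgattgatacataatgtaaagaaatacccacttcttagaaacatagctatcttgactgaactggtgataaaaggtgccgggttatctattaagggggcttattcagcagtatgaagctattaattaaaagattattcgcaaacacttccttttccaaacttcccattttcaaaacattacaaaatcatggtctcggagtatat
Chil4, chr3:106219508-106219729, minus strand: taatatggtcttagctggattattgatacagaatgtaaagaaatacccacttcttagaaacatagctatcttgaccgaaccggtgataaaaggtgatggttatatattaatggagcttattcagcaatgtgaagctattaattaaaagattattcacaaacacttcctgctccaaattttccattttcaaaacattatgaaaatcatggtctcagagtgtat
Retnla, chr16:48842359-48842550, plus strand: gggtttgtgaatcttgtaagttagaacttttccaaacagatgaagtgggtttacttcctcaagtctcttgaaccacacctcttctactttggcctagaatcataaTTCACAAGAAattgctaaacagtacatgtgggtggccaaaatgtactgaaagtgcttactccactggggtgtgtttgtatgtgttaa
Ptgs2 held TTGCGCAA at -69 to -62, a match found in 0.164% of 32851 promoters of 250 bases. Retnla held TTCACAAGAA at -87 to -78, and TTCNNNNGAA occurred in 5.85% of promoters. The other motifs sought occurred in 1.47 to 17.8% of promoters and had no match in any stretch shown. The Acod1, Chil3 and Chil4 stretches held none of the motifs sought. These shares are for single motifs, and the share of promoters with a match to any of them is not given. A match describes letters in this window and is neither a bound site nor a cause. The 2 chitinase-like stretches agreed at 201 of 221 aligned bases (91.0%).

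From bulk tissue to sorted cells, Acod1 and Ptgs2 had the largest rises of the tested members in each of the 4 organs compared. Differences between bulk organs were also large. Chil3, for example, had mean levels of 2318 CPM in marrow and 1.96 CPM in tumor of PBS mice. Sorted cells were compared with bulk tissue of the same 3 BP mice in each organ by edgeR's quasi-likelihood test with Benjamini-Hochberg adjustment over all genes, and a gene with an adjusted p under 0.05 is called higher or lower. In tumor 3 of 6 tested members were called, all higher (Acod1, Ptgs2, Arg1), while 9.04% of 14615 genes were called, 5.87% higher and 3.17% lower. In spleen 2 of 7 were called, both higher (Acod1, Ptgs2), against 42.2% of 15026 genes (20.2% higher, 22.0% lower). In liver 5 of 5 were called, 4 higher (Acod1, Nos2, Ptgs2, Chil3) and 1 lower (Arg1), against 74.8% of 13247 genes (37.3% higher, 37.5% lower). In bone marrow 2 of 5 were called, both higher (Acod1, Ptgs2), against 7.69% of 13573 genes (4.8% higher, 2.9% lower). Acod1 and Ptgs2 in all 4 organs, and Nos2 in liver, passed the filter on low counts only through the sorted libraries, so that their place among the tested genes already required a difference. The counts are therefore not read as support, and neither are the p-values of these genes in these comparisons.

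Acod1 (ENSMUSG00000022126, chr14:103046977-103056573, plus strand) was close to the detection limit in every bulk organ and abundant in every sorted library. The 36 bulk libraries lay between 0 and 1.24 CPM with a median of 0.328, which is 0 to 15 counts a library. Sorted spleen cells of BP mice 1, 2 and 3 stood at 268.3, 133.8 and 144 CPM, against 0.565, 0.352 and 0.304 CPM in bulk spleen of the same mice. In CPM each of the 3 sorted spleen libraries lay above every other library of the series. Sorted liver cells had 37.7, 44.9 and 23.8 CPM against 0.940, 1.24 and 0.234 CPM in bulk. Sorted tumor cells had 29.2, 56.9 and 5.93 CPM against 0.145, 0.648 and 0 CPM, and sorted marrow cells 14.1, 23.3 and 19.7 CPM against 0.443, 0.542 and 0.850 CPM. Sorted tumor cells varied most, with mouse 2 far above mouse 3. In the group means, sorted spleen (182 ± 74.9 CPM, SD, n = 3) did not overlap the next group, sorted liver (35.5 ± 10.7), whereas sorted liver, tumor (30.7 ± 25.5) and marrow (19.0 ± 4.61) overlapped their neighbours. The place of liver depends on the scaling, since mitochondrial counts enter its CPM. With TMM scaling over all 49 libraries, sorted liver stood at 66.3 to 149.8 (mean 97.5) and sorted spleen at 125.6 to 213.5 (mean 155.5), and the groups overlapped.

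The Acod1 log2 fold change between sorted cells and bulk was 8.95 ± 0.38 (SE) in spleen (adjusted p = 0.000143, edgeR), 6.35 ± 0.47 in liver (adjusted p = 2.702e-06), 4.93 ± 0.34 in marrow (adjusted p = 0.0001813) and 6.92 ± 1.28 in tumor (adjusted p = 0.0297). Acod1 entered these tests only through the sorted libraries, so the p-values are not read as support. The spleen difference exceeded the mean difference of the other 3 organs by 2.91 on the log2 scale (edgeR, adjusted p = 0.0423), in a contrast that called 18.2% of 17281 genes. That excess lost its call when any of the 3 mice was left out, at adjusted p-values of 0.0551 to 0.266. The tumor call was lost without bulk mouse 1 (adjusted p = 0.0697), bulk mouse 2 (0.0572), sorted mouse 1 (0.128) or sorted mouse 2 (0.118). In the single sorted lymph node library Acod1 had 145 counts, 15.07 CPM with an exact Poisson interval of 12.7 to 17.7 that covers counting error only, against 0.107 CPM in bulk node of the same mouse. With 1 library there was no test.

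**Figure D1:**
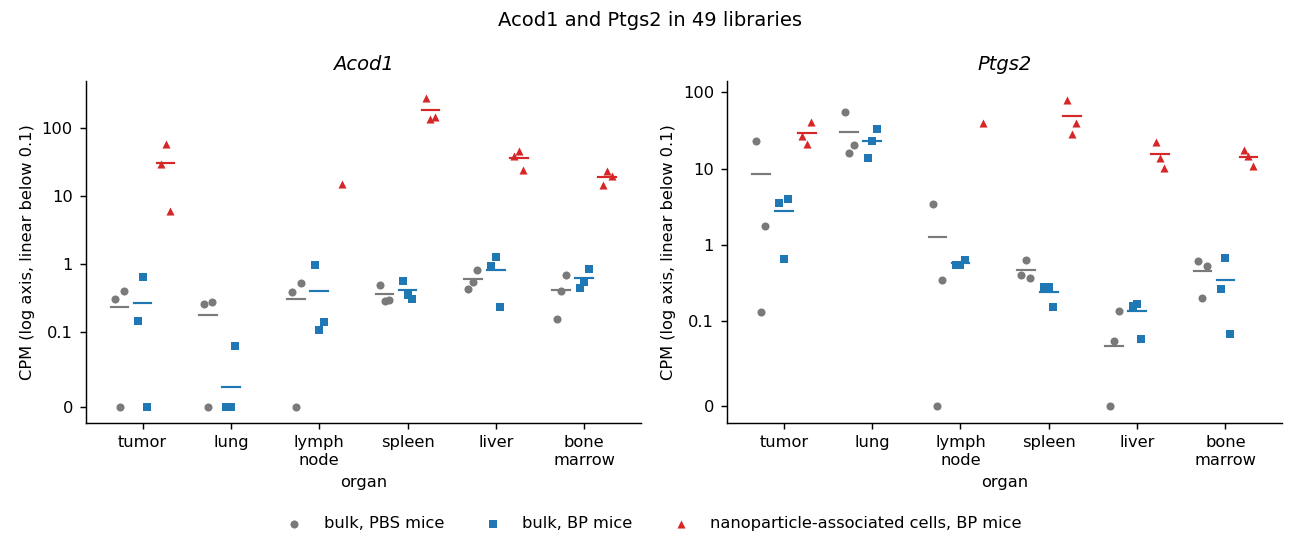
CPM of Acod1 and Ptgs2 in each library (vertical axis, logarithmic above 0.1 and linear below), by organ, with PBS bulk tissue as grey circles, BP bulk tissue as blue squares, sorted cells as red triangles and group means as lines. For Acod1 the 13 sorted libraries (5.93 to 268.3 CPM) all lie above the 36 bulk libraries (0 to 1.24 CPM), and for Ptgs2 bulk lung (13.7 to 54.9 CPM) reaches the range of the sorted cells (10.1 to 78.1 CPM).

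Ptgs2 (ENSMUSG00000032487, chr1:150100031-150108227, plus strand) was also high in all sorted libraries, and unlike Acod1 it was present in some bulk tissue. Sorted spleen cells stood at 78.1, 28.0 and 39.0 CPM against 0.283, 0.282 and 0.152 CPM in bulk spleen. Sorted liver cells stood at 22.4, 13.7 and 10.1 CPM against 0.157, 0.166 and 0.0781 CPM, and sorted marrow cells at 17.5, 14.8 and 10.7 CPM against 0.266, 0.677 and 0.0850 CPM. These 3 organs held at most 10 counts of Ptgs2 in any BP bulk library, and sorted and bulk values did not overlap. Sorted tumor cells stood at 26.8, 20.7 and 41.0 CPM against 3.56, 0.648 and 4.02 CPM in bulk tumor, again without overlap. The log2 fold changes were 7.74 ± 0.51 in spleen (adjusted p = 0.0002766, edgeR), 7.54 ± 0.35 in liver (adjusted p = 2.595e-07), 5.26 ± 0.45 in marrow (adjusted p = 0.0005558) and 3.40 ± 0.67 in tumor (adjusted p = 0.0331). Like Acod1, Ptgs2 entered these tests only through the sorted libraries, and the same limit holds for its p-values. The tumor difference was smaller than the mean of the other 3 organs by 3.45 on the log2 scale (-3.45, adjusted p = 0.0004996, edgeR, where 23.8% of genes were called), and the spleen difference larger by 2.34 (adjusted p = 0.0438). Without mouse 1 the tumor contrast narrowly missed the threshold (-2.79, adjusted p = 0.0501). The spleen contrast was lost when any mouse was left out, at adjusted p-values of 0.0512 to 0.287, and with the mouse as a replicate block (0.051). The sorted tumor call itself was lost without bulk mouse 1 (adjusted p = 0.0561), sorted mouse 1 (0.138), sorted mouse 2 (0.112) or sorted mouse 3 (0.0919). The sorted lymph node library held 383 counts of Ptgs2, 39.8 CPM (exact Poisson interval 35.9 to 44.0), against 0.534 CPM in bulk node of that mouse.

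Transcripts known to rise while tissue is digested moved with both genes. A list of 12 such genes, immediate early factors (Fos, Fosb, Jun, Junb, Egr1, Ier2, Atf3, Zfp36, Nr4a1) and heat shock genes (Hspa1a, Hspa1b, Dnajb1), had 11 members called higher in sorted tumor cells, 12 in spleen, 12 in liver and 11 in marrow, and none lower. Its summed level rose from 378.6 to 492 CPM in BP bulk spleen to 4637 to 13080 CPM in sorted spleen cells. The same sum went from 162.4 to 228.2 CPM to 5620 to 9619 CPM in liver, from 396.9 to 825.1 CPM to 6954 to 9539 CPM in tumor and from 322.6 to 341.5 CPM to 1666 to 1900 CPM in marrow. Sorted spleen, with the most Acod1 in CPM, had a median sum of 6414 CPM, beside 7977 CPM in sorted liver and 8449 CPM in sorted tumor. The ranges of these 3 groups overlapped, and mitochondrial counts enter the CPM of sorted liver. Of the sorted groups of 3, marrow had both the lowest sum and the lowest mean of Acod1. Other sorted libraries did not follow that order. The sorted lymph node library had 15.07 CPM of Acod1 beside a sum of 7616 CPM. Sorted tumor cells of mouse 3 had the least Acod1 of the sorted libraries (5.93 CPM) beside 6954 CPM. In sorted spleen cells of mice 1, 2 and 3 the sums were 6414, 4637 and 13080 CPM, beside 268.3, 133.8 and 144 CPM of Acod1. Of 10 macrophage markers, 0 were called higher and 7 lower in sorted tumor cells, 0 and 5 in spleen, 5 and 0 in liver and 1 and 0 in marrow. Beside these and the list above stand the shares of all genes called higher and lower. They were 5.87 and 3.17% in tumor, 20.2 and 22.0% in spleen, 37.3 and 37.5% in liver and 4.8 and 2.9% in marrow. The summed macrophage level was 366.3 to 434.2 CPM in sorted tumor cells against 1029 to 1340 CPM in bulk, and 1098 to 2669 CPM in sorted spleen cells against 3156 to 4731 CPM. In liver it was 494.7 to 1592 CPM against 723.9 to 893.9 CPM and in marrow 4795 to 6287 CPM against 5320 to 6514 CPM, with overlap in both. All 10 had counts in every sorted library of these groups, the lowest value being 1.38 CPM of Fcgr1 in a sorted spleen library. The part of digestion or of cell composition in the Acod1 and Ptgs2 values was not tested.

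**Figure D2:**
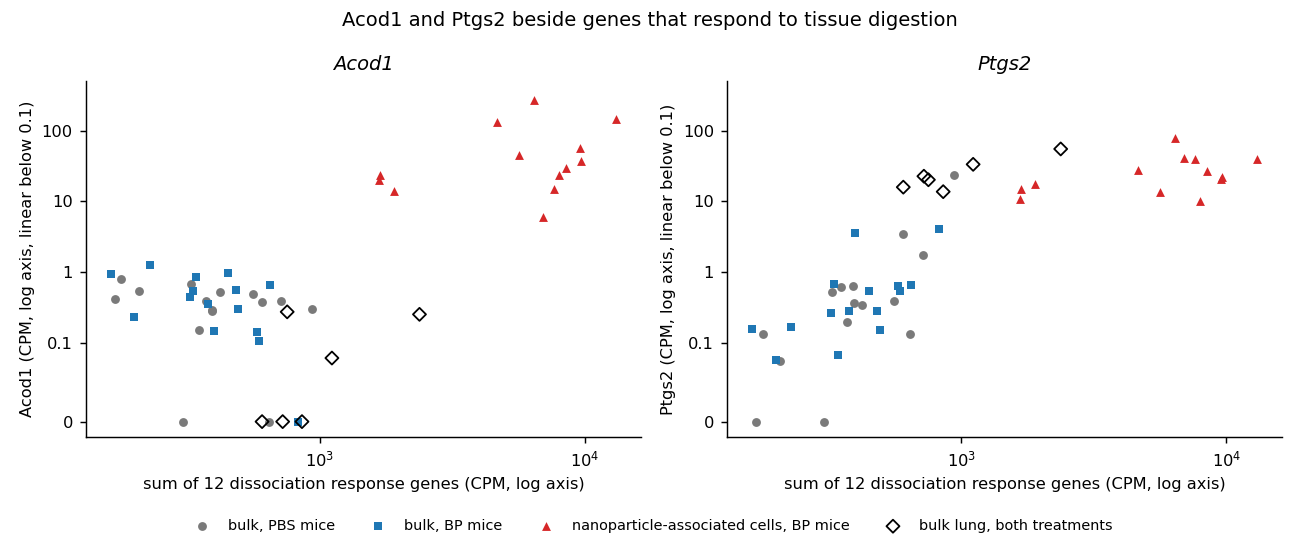
CPM of Acod1 and Ptgs2 (vertical axes, logarithmic above 0.1 and linear below) against the summed CPM of the 12 dissociation response genes (horizontal axis, logarithmic), 1 point per library, with bulk lung as open diamonds. Sorted libraries lie between 1666 and 13080 CPM of the sum, and 1 bulk library, lung of PBS mouse 1, lies within that range (2373 CPM) and has the most Ptgs2 of the bulk libraries (54.9 CPM).

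In bulk tissue Ptgs2 was highest in lung. Lung of PBS mice had 54.9, 15.9 and 20.2 CPM and lung of BP mice 13.7, 22.6 and 33.3 CPM. In PBS mice the lung level exceeded the mean of the other organs by 5.10 ± 0.75 on the log2 scale (edgeR over 18 libraries). The library with 54.9 CPM, lung of PBS mouse 1, also had the highest dissociation response sum among bulk libraries (2373 CPM, against 604.5 to 1109 CPM in the other 5 lungs, its part in the Ptgs2 level not being tested). Bulk tumor of PBS mouse 1 had 23.2 CPM of Ptgs2 while the other 5 bulk tumors had 0.133 to 4.02 CPM. The tumor excess of 2.99 ± 0.80 in PBS mice (adjusted p = 0.00498) rested on that mouse and was 0.36 without it (adjusted p = 0.732). Bulk lymph node, spleen, liver and marrow lay between 0 and 3.41 CPM, below all 6 lungs. Ptgs1, the constitutive cyclooxygenase, was present in all 49 libraries at 4.57 to 97.6 CPM.

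Ptges (ENSMUSG00000050737, chr2:30889471-30929863, minus strand), which acts downstream of Ptgs2, did not follow it. Sorted spleen cells had 8.58, 0.969 and 2.63 CPM of Ptges against 10.2, 7.04 and 7.14 CPM in bulk spleen, sorted tumor cells 23.8, 46.0 and 4.70 CPM against 60.0, 21.97 and 6.18 CPM, and sorted marrow cells 4.76, 4.96 and 5.19 CPM against 5.85, 6.64 and 4.42 CPM. These groups overlapped and none of the differences was called. Bulk liver held 0.234 to 0.662 CPM, the lowest level of the 6 organs, and Ptges was not tested there. In PBS mice Ptges was highest in lymph node (10.1, 25.3 and 42.9 CPM; log2 excess over the other organs 2.46 ± 0.33) and lung (16.4, 18.2 and 22.2 CPM; 1.69 ± 0.35), whose ranges overlapped, and lowest in liver (-4.00). Lung of BP mice had 21.1, 21.3 and 21.5 CPM.

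Of the other prostaglandin and leukotriene genes, 24 were listed. Counts of genes called in sorted cells, in this and the other pathway and marker lists, stand against the shares of all genes. Those called higher and lower were 5.87 and 3.17% in tumor, 20.2 and 22.0% in spleen, 37.3 and 37.5% in liver and 4.8 and 2.9% in marrow. Listed genes that were scarce in bulk tissue could pass the filter on low counts only through the sorted libraries. How many did so was not counted, and the list counts are therefore not read as support. In sorted tumor cells 0 of 21 tested were called higher and 3 lower: Alox5ap, the activating protein of 5-lipoxygenase (-2.02 ± 0.48), Hpgds, a prostaglandin D synthase (-1.90 ± 0.37), and Tbxas1, the thromboxane synthase (-1.70 ± 0.35). The list's median log2 fold change was -0.72, against -0.03 over all tested genes. In sorted spleen cells 4 were higher and 4 lower (median -0.25). The prostaglandin E receptors Ptger4 (2.17 ± 0.14) and Ptger2 (1.76 ± 0.35) were among the higher genes, and Hpgd, which inactivates prostaglandins (-2.30 ± 0.29), and Alox5 (-1.67 ± 0.29) among the lower. In sorted liver cells 14 of 21 were higher, led by Ptger4 (4.89 ± 0.49), and 2 lower (median 1.12, against 0.01 over all genes). In marrow 1 of 20 was called, Ptger2, which was higher (0.74 ± 0.16). Among PBS organs, lung was highest for Ptgis, the prostacyclin synthase (5.67 ± 0.33 above the other organs), and for Hpgd (3.92 ± 0.18), and marrow for Alox5 (5.24 ± 0.28) and Alox5ap (4.08 ± 0.29).

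Few genes around itaconate and succinate were called higher, about as often as all genes were in tumor, spleen and marrow. Of 18 listed genes, 1 of 16 tested was called higher in sorted tumor cells, 3 of 17 in spleen, 2 of 17 in liver and 1 of 16 in marrow, beside 5.87, 20.2, 37.3 and 4.8% of all genes. The gene called higher in all 4 organs was Atf3, a stress transcription factor that also stands in the dissociation list (4.84 ± 0.58 in tumor, 4.88 ± 0.41 in spleen, 6.54 ± 0.18 in liver, 4.05 ± 0.14 in marrow). Nfe2l2, the antioxidant regulator Nrf2 that itaconate is known to stabilise, was higher in spleen (1.35 ± 0.13) and liver (1.00 ± 0.12). In sorted liver cells 15 of the 17 were lower, among them the citrate carrier Slc25a1 (-3.26 ± 0.14) and the aconitase Aco1 (-3.08 ± 0.18), beside 7 of 7 hepatocyte markers called lower.

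Nos2 (ENSMUSG00000020826, chr11:78920787-78960254, plus strand) was scarce throughout and at most 9.32 CPM. Sorted liver cells had 5.72, 0.884 and 1.01 CPM against 0.235, 0.331 and 0.234 CPM in bulk liver, without overlap, and mouse 1 stood apart. The log2 fold change was 3.87 ± 0.69 (adjusted p = 0.0007134, edgeR) and exceeded the mean of the other organs by 3.43 (adjusted p = 0.0226, where 53.7% of genes were called). In that liver contrast 3 members were called (Nos2, Chil3, Arg1), in tumor 3 (Nos2, Ptgs2, Retnla), in spleen 2 (Acod1, Ptgs2) and in marrow 0, where 15.0% of genes were. The Nos2 excess was 2.11 without mouse 1 (adjusted p = 0.11), 3.54 without mouse 2 (1.00) and 3.78 without mouse 3 (0.051). Sorted spleen cells had 4.15, 1.59 and 3.04 CPM against 1.23, 1.62 and 1.52 CPM, a log2 fold change of 1.14 ± 0.39 that just missed the threshold (adjusted p = 0.0511). It passed with DESeq2 size factors (0.0408), with DESeq2 (0.035) and without sorted mouse 2 (0.0213). Sorted tumor cells stayed at 0.215 to 0.307 CPM, and the contrast of tumor with the other organs was -3.65 (adjusted p = 0.0108), which was -1.70 without mouse 1 (adjusted p = 0.306). Marrow held 0 to 0.225 CPM in all 9 libraries.

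In PBS mice Nos2 followed lung (9.32, 2.43 and 4.12 CPM), lymph node (2.35, 1.55 and 3.03 CPM) and spleen (3.07, 1.06 and 1.32 CPM), which overlapped one another. Liver, marrow and tumor of PBS mice had at most 0.395 CPM each. The excess over the mean of the other organs was 3.23 ± 0.39 in lung, 1.96 ± 0.42 in node and 1.31 ± 0.44 in spleen (adjusted p = 0.0209), and the spleen call was lost without PBS mouse 1 (0.152) or mouse 2 (0.0639). Over all 49 libraries the genes with the most similar order to Nos2 were Zfp366 (Spearman 0.91), Plvap (0.89) and Ptprm (0.89), of which Plvap encodes a protein of fenestrated endothelium. Endothelial markers stood beside the liver value: their sum of 6 genes rose from 128.5 to 190.5 CPM in BP bulk liver to 987.7 to 2359 CPM in sorted liver cells, with 6 of 6 called higher. The endothelial isoform Nos3 was at 2.97 to 4.46 CPM in BP bulk liver and 16.9 to 54.3 CPM in sorted liver cells (3.97 ± 0.27). Their part in the Nos2 value was not tested. Nos1, the neuronal isoform, reached at most 4.69 CPM.

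Arg1 (ENSMUSG00000019987, chr10:24915221-24927484, minus strand), the counterpart of Nos2, was above all a liver transcript here. Bulk liver had 1157, 1292 and 1151 CPM in PBS mice and 1259, 1296 and 1453 CPM in BP mice, above every other library of the series, of which the highest held 209.1 CPM. In sorted liver cells it was 77.9, 45.8 and 52.0 CPM, a log2 fold change of -3.71 ± 0.18 (adjusted p = 3.196e-07, edgeR). Hepatocyte markers fell with it, with 7 of 7 called lower. In bulk liver 15.95 to 22.57 Arg1 counts were present per 1000 counts of Alb, the albumin gene of hepatocytes, and in sorted liver cells 2.69 to 9.79.

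Bulk tumor was the second organ for Arg1, with a wide spread: PBS tumors had 16.3, 110.7 and 209.1 CPM and BP tumors 33.9, 56.1 and 65.8 CPM. In PBS mice the tumor excess over the other organs was 2.09 ± 0.39 (adjusted p = 0.0002426), and 1.13 without PBS mouse 3 (adjusted p = 0.124). Sorted tumor cells were more even, at 105.6, 87.0 and 118.1 CPM, above all 3 bulk BP tumors. Their log2 fold change of 1.06 ± 0.20 (adjusted p = 0.0317, edgeR) was lost with the mouse as a replicate block (0.0549), with the spread estimated over 48 libraries (0.324) and in 5 of the 6 fits that left out 1 library, at adjusted p-values of 0.0635 to 0.16. In tumor libraries Arg1 stood at 100.9 to 7885 counts per 1000 Alb counts, well above the liver ratio.

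In lung, lymph node, spleen and marrow the low Arg1 values ran parallel to Alb. Bulk spleen had 0.836 to 9.21 CPM of Arg1 and 16.0 to 25.6 Arg1 counts per 1000 Alb counts, a ratio that overlaps bulk liver. Bulk marrow had 0.255 to 5.41 CPM and a ratio of 19.7 to 24.5 in 5 of 6 libraries, the sixth holding 3 counts of Arg1. Bulk lung had 24.5 to 41.0 and bulk lymph node 27.4 to 48.3 in 5 of 6 libraries. Lymph node of BP mouse 3 was the exception with enough counts to read, at 162.9 (166 Arg1 counts and 1019 Alb counts). The part of hepatocyte transcripts in these Arg1 values was not tested.

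**Figure D3:**
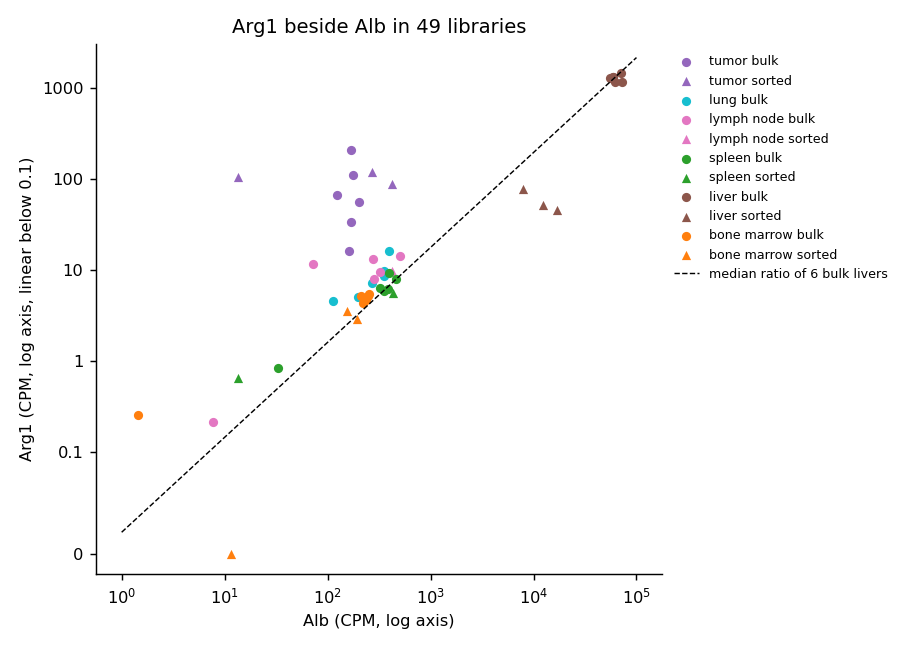
Arg1 CPM (vertical axis, logarithmic above 0.1 and linear below) against Alb CPM (horizontal axis, logarithmic), 1 point per library, with bulk tissue as circles, sorted cells as triangles, colors for organs and a dashed line at the median ratio of the 6 bulk livers. Tumor libraries lie above the line (100.9 to 7885 Arg1 counts per 1000 Alb counts), sorted liver cells below it (2.69 to 9.79), and most spleen and marrow libraries along it.

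Among 21 other genes of arginine, nitric oxide and polyamine metabolism, the sorted cells of the spleen had 6 of 21 called higher and 2 lower. Arg2, the mitochondrial arginase, was at 0.152 to 1.04 CPM in BP bulk spleen and 6.73 to 13.9 CPM in sorted spleen cells (3.81 ± 0.61, adjusted p = 0.003593). The arginine transporter Slc7a1 (2.81 ± 0.17) and Odc1, the first enzyme of polyamine synthesis (1.68 ± 0.38), were also higher. In sorted liver cells 13 of 20 were lower, led by the urea cycle genes Cps1 (-5.14 ± 0.30), Ass1 (-3.99 ± 0.25) and Otc (-3.84 ± 0.18), and 6 higher, among them Ddah2 (3.73 ± 0.16) and Slc7a1 (3.68 ± 0.36). The list's median was -1.76 in liver and 0.11 in spleen, against 0.01 and -0.04 over all genes. In tumor 1 of 20 was higher, Gch1 (1.99 ± 0.43), which makes the cofactor of nitric oxide synthases, and in marrow Slc7a1 (1.00 ± 0.15) and Sat1 (0.60 ± 0.12) were higher and Pts lower (-0.56 ± 0.12). Bulk liver of PBS mice led the other organs in Agmat (8.80 ± 0.23), Cps1 (8.72 ± 0.26) and Otc (8.63 ± 0.22).

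**Figure D4:**
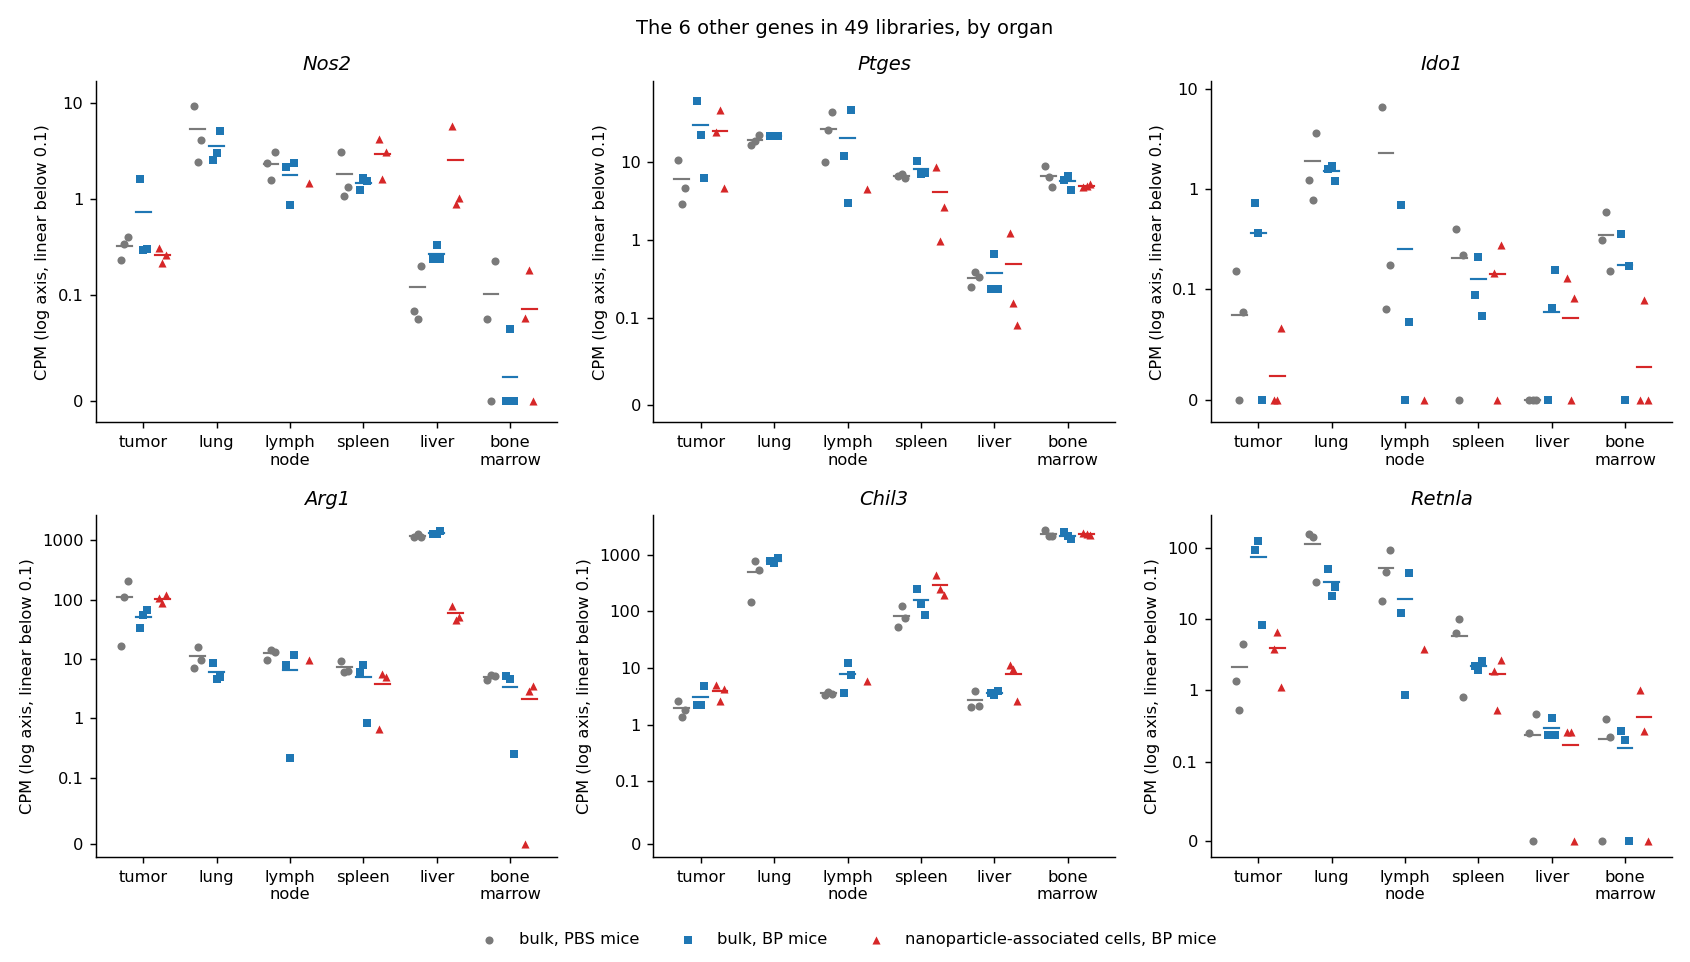
CPM of Nos2, Ptges, Ido1, Arg1, Chil3 and Retnla in each library (vertical axes, logarithmic above 0.1 and linear below) by organ, with PBS bulk tissue as grey circles, BP bulk tissue as blue squares, sorted cells as red triangles and group means as lines. Arg1 is highest in bulk liver (1151 to 1453 CPM) and Chil3 in marrow (1881 to 2739 CPM in bulk), while Nos2, Ptges, Ido1 and Retnla have lung or lymph node at or near the top with overlapping ranges.

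Chil3 (ENSMUSG00000040809, chr3:106147554-106167564, minus strand) was the most abundant of the 8 genes in any library and a marrow transcript. Bone marrow had 2739, 2112 and 2103 CPM in PBS mice, 2548, 2113 and 1881 CPM in BP mice and 2452, 2328 and 2193 CPM in sorted cells, so that all 9 marrow libraries lay in 1 range. Lung followed with 145, 774.6 and 548.9 CPM in PBS mice and 769.3, 718.1 and 881.3 CPM in BP mice. Spleen was next with 52.4, 122.7 and 77.5 CPM in PBS mice and 247.4, 135.4 and 84.8 CPM in BP mice. Tumor, lymph node and liver bulk libraries held 1.40 to 12.2 CPM. In PBS mice the excess over the mean of the other organs was 7.23 ± 0.33 in marrow, 4.29 ± 0.32 in lung and 1.23 ± 0.36 in spleen (adjusted p = 0.0101), and the spleen call was lost without PBS mouse 2 (0.0708) or mouse 3 (0.12).

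Sorted spleen cells had 444.2, 243.9 and 194.3 CPM of Chil3, higher than bulk spleen of the same mouse in 3 of 3 mice. The log2 fold change was 1.08 ± 0.42 (adjusted p = 0.0806, edgeR), and with the mouse as a replicate block it was 1.14 (adjusted p = 0.000548). Sorted liver cells had 11.4, 9.78 and 2.66 CPM against 3.60, 3.31 and 3.90 CPM, a log2 fold change of 1.99 ± 0.43 (adjusted p = 0.0024) although sorted cells of mouse 3 did not exceed its bulk tissue in CPM. The fold change is TMM-scaled and the CPM values are not. The liver difference exceeded the mean of the other organs by 1.36 (adjusted p = 0.0226) and by 0.83 without mouse 2 (adjusted p = 0.341). Neutrophil markers moved in the same organs: 4 of 9 were called higher and 0 lower in sorted spleen cells (sum 1507 to 3170 CPM against 737.8 to 2313 CPM in bulk), and 7 of 8 tested in sorted liver cells (75.2 to 202.1 CPM against 47.5 to 72.7 CPM). All 7 monocyte markers tested, Chil3 itself among them, were higher in sorted liver cells, and their part in the Chil3 values was not tested.

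The genes with the most similar order to Chil3 over the 49 libraries were Ear2 (Spearman 0.94), Rab44 (0.93) and Ear-ps2 (0.93). S100a8, a neutrophil protein, had 0.89. In marrow of PBS mice 8 of 9 neutrophil markers and 9 of 9 neutrophil precursor genes were called higher than in the other organs, and in lung 6 of 7 alveolar macrophage markers. Chil4 had counts in 7 of 49 libraries and at most 1.52 CPM. Chil3 had counts in all 49. Their transcripts are identical at 94.7% of 1535 aligned bases, so that the division of reads between the pair is uncertain, and their upstream stretches, printed above, at 91.0%. Retnlg, a resistin-like gene of neutrophils, had 889.8 to 1207 CPM in marrow and was higher in sorted cells of spleen (1.58 ± 0.30) and liver (3.27 ± 0.46). Chil1, another chitinase-like gene, was higher in the same 2 fractions (1.33 ± 0.29 and 2.43 ± 0.35).

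Retnla (ENSMUSG00000061100, chr16:48842551-48844461, plus strand) was highest in lung, in lymph node and in the tumors of 2 of the 3 BP mice. Lung had 156, 141.9 and 32.8 CPM in PBS mice, and lymph node 18.01, 45.4 and 92.0 CPM. In PBS mice these organs exceeded the mean of the others by 5.43 ± 0.56 and 4.33 ± 0.57 on the log2 scale, and their ranges overlapped. Bulk liver and marrow stayed at or below 0.468 CPM. Tumors of PBS mice had 1.37, 0.532 and 4.50 CPM, and tumors of BP mice 91.3, 123.7 and 8.34 CPM. The 2 groups of tumors did not overlap, as for 9.0% of 14535 genes in either direction, but BP mouse 3 lay much nearer to the PBS tumors than to the other BP tumors. Retnla passed the filter in tumor only through the BP group.

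The Retnla difference between BP and PBS tumors was 5.31 ± 1.25 on the log2 scale, with an unadjusted p of 0.003667 and an adjusted p of 0.797 (edgeR), so that it was not called. DESeq2 called it (adjusted p = 0.000102), as did edgeR with the spread estimated over 48 libraries (0.00154). Relative to the mean BP difference of the other 5 organs, the tumor difference was 6.25 ± 1.24 (adjusted p = 0.004852, edgeR over 36 libraries), where 4.06% of 18613 genes were called, 3.21% as higher. In the other 5 organs 0 members and 0.0% of genes were called in this contrast. That call was lost without BP mouse 1 (adjusted p = 0.0623) or PBS mouse 2 (0.113). Fat transcripts stood beside it: 6 adipocyte markers summed to 3459, 296.5 and 114.3 CPM in BP tumors 1, 2 and 3, all above the PBS tumors (14.98, 1.53 and 65.9 CPM). Adipoq, the adipocyte hormone adiponectin, had 868.6, 115.9 and 39.8 CPM in BP tumors 1, 2 and 3 and 6.84, 0.465 and 15.5 CPM in PBS tumors. Retn, the adipocyte hormone resistin and a relative of Retnla, had 582.1, 66.6 and 10.6 CPM against 2.05, 0.266 and 11.5 CPM. Retnla was highest in mouse 2 and the fat transcripts in mouse 1. Transcripts of other tissues also differed between the tumors. The 4 skeletal muscle markers summed to 1.527, 3138 and 0.96 CPM in BP tumors 1, 2 and 3. In PBS tumors their sum was 1.369 to 2.548 CPM. The 5 fibroblast markers summed to 2294, 1787 and 442.9 CPM in the same BP tumors, against 1990, 76.97 and 183 CPM in PBS tumors. The part of fat, muscle or fibroblasts in the Retnla values was not tested.

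Sorted tumor cells had 3.81, 6.66 and 1.11 CPM of Retnla, below all 3 bulk BP tumors (34.8% of all genes tested did not overlap there), and 2.94 to 6.20 CPM of the summed adipocyte markers. The log2 fold change of -4.31 ± 1.12 was not called (adjusted p = 0.0568, edgeR), but it was with the mouse as a replicate block (-3.98, adjusted p = 0.0273). It was lower by 4.80 than the mean difference of the other organs (-4.80, adjusted p = 0.003382), and that call was lost without mouse 1 (adjusted p = 0.187) or mouse 2 (0.0509). Lymph node of PBS mice also held fat transcripts, with 6 of 6 adipocyte markers called higher than in the other organs (sum 589.1 to 3064 CPM) and Retn at 90.7 to 306.5 CPM. Over the 49 libraries Retnla had a Spearman correlation of 0.77 with Retn and 0.43 with Adipoq, and the genes most like it were Dpt (0.91), Medag (0.90) and Scn7a (0.90), of which Dpt encodes the matrix protein dermatopontin. These correlations mix organs and are descriptions. Retn was lower in sorted tumor cells (-10.3 ± 1.97 on the log2 scale, adjusted p = 0.0316, edgeR), and Retnlb, another relative of Retnla, was at most 0.255 CPM.

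Ido1 (ENSMUSG00000031551, chr8:24584136-24597009, minus strand) was near the detection limit, with 10 or more counts in 8 of 49 libraries. Lung was the steadiest source, at 1.22, 0.779 and 3.67 CPM in PBS mice and 1.60, 1.69 and 1.21 CPM in BP mice. The highest value, 6.66 CPM, came from lymph node of PBS mouse 1, while the other 2 PBS nodes had 0.0816 and 0.173 CPM. The lymph node excess of 3.66 ± 0.92 in PBS mice (adjusted p = 0.00684) was 0.06 without that mouse (adjusted p = 0.825). The lung excess of 3.39 ± 0.95 (adjusted p = 0.00759) was 2.30 without PBS mouse 3 (adjusted p = 0.183). All 13 sorted libraries had at most 0.277 CPM, below every lung, and Ido1 was not tested in any comparison of sorted cells with bulk. In the sorted node library a count of 0 allows up to 0.312 CPM.

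Ido2, the neighbouring relative of Ido1, was a liver gene, at 62.5 to 95.7 CPM in bulk liver and 0.832 to 2.14 CPM in sorted liver cells (-4.93 ± 0.19). Of 20 tryptophan and kynurenine genes, 10 of 19 tested were lower in sorted liver cells, among them Tdo2, the liver tryptophan dioxygenase (-4.13 ± 0.20), and Acmsd (-4.15 ± 0.40), and 8 were higher, among them the transporter subunit Slc7a5 (3.41 ± 0.30). The median was -3.16, against 0.01 over all genes. In sorted spleen cells 4 of 16 were higher, including Slc7a5 (2.73 ± 0.51) and Ahr, the receptor that kynurenine is known to bind (2.39 ± 0.23). A further 5 were lower, including Kmo (-2.72 ± 0.17) and Kynu (-1.43 ± 0.15), which process kynurenine further. In tumor 0 of 15 were called, and in marrow Slc3a2 was higher (1.17 ± 0.25) and Kmo was 1 of 2 genes that were lower (-1.33 ± 0.20). In PBS mice liver led in Aadat (8.99 ± 0.23), Tdo2 (8.65 ± 0.26) and Ido2 (8.42 ± 0.24).

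In bulk tissue no member passed the test between BP and PBS mice. By edgeR 0 of 5 tested members were called in tumor, 0 of 7 in lung, 0 of 5 in lymph node, 0 of 5 in spleen, 0 of 3 in liver and 0 of 3 in marrow. Over all genes edgeR called 0.0% in each of these organs except liver, where it called 0.0235% (3 of 12740 genes). At an unadjusted p under 0.05 stood 2 of 5 members in tumor (Retnla and Ptges) and 1 of 7 in lung (Retnla), where 5.96% and 0.872% of all genes did. In lymph node, spleen, liver and marrow 0 members did, against 3.61%, 0.711%, 3.56% and 1.32% of all genes. The Ptges levels of BP tumors, 60.0, 21.97 and 6.18 CPM, overlapped those of PBS tumors, 10.65, 2.86 and 4.66 CPM (log2 fold change 2.58 ± 0.97, adjusted p = 0.797). Retnla in lung was 49.4, 21.0 and 27.9 CPM in BP mice (-1.72 ± 0.57 against PBS, adjusted p = 1.00), again with overlap. DESeq2 called 1 of the 5 tumor members (Retnla) and 0 in the other organs, and edgeR with the spread over 48 libraries called 2 (Retnla and Ptges). No gene of the 7 pathway lists was called between BP and PBS in any organ either.

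In the contrast of the BP difference in tumor with that of the other organs, which called Retnla, 7 of 25 alternative activation genes tested were called higher and 0 lower, where 3.21% of all genes were called higher. Pparg, a regulator of lipid metabolism in macrophages and of fat cells, stood at 81.95, 8.79 and 3.12 CPM in BP tumors 1, 2 and 3 and 0.761, 0.465 and 1.42 CPM in PBS tumors (5.42 ± 1.01, adjusted p = 0.003648, edgeR). The lectins Cd209a (3.29 ± 0.72, adjusted p = 0.008985) and Mgl2 (3.15 ± 0.77, adjusted p = 0.0178) were highest in BP tumor 2, at 10.59 and 6.99 CPM, and at most 0.837 and 1.37 CPM in PBS tumors. The other genes called were Ccl24, Ppargc1b, F13a1 and Cd163. Of the eicosanoid list 4 of 23 were higher, among them Ptger3 (5.72 ± 1.41), and Slco2a1 was lower (-1.39 ± 0.37). Of the classical list 0 of 31 were called. Beside these, 3 of 5 B and plasma cell, 3 of 6 endothelial, 2 of 8 dendritic cell and 1 of 6 adipocyte markers were called higher and 0 of 10 macrophage markers, and their part was not tested. Leaving out 1 mouse left 36 to 1686 of all genes called in this contrast.

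Across the organs of PBS mice 7 members were tested, Acod1 being too low, and most of their values are given above by gene. In tumor 4 of 7 were called against the mean of the other organs, where 50.7% of 17696 genes were. In lung 7 of 7 were called (50.6% of all genes), in lymph node 6 (33.8%), in spleen 3 (47.0%), in liver 6 (64.3%) and in marrow 4 (57.9%). Per kilobase of exon, which allows levels of different genes to be compared, the leading member was Arg1 in liver of PBS mice (538.6 CPM per kb, with Chil3 next at 1.65) and Chil3 in marrow (1420, with Arg1 next at 2.24) and lung (299.9, with Retnla next at 184). Retnla led in lymph node (86.5 CPM per kb) and Arg1 in tumor (50.3). In tumor of BP mice Retnla led at 124.2 CPM per kb, ahead of Arg1 at 23.3. Among sorted cells Arg1 led in tumor (46.5 CPM per kb) and liver (26.3), followed in both by Acod1 (11.7 and 13.5), and Chil3 led in spleen (180.2) and marrow (1424), again followed by Acod1 (69.4 and 7.25).

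**Figure D5:**
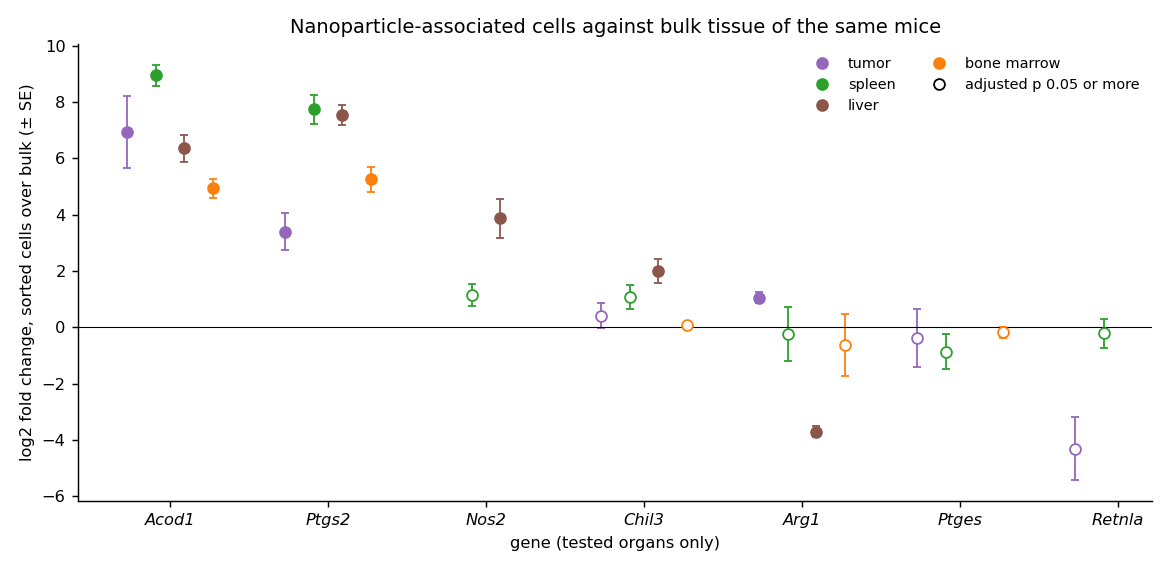
Log2 fold change of sorted cells against BP bulk tissue (vertical axis) with standard errors, for 7 members (horizontal axis) in the organs where each was tested, colored by organ, filled where the adjusted p is under 0.05 and open where it is not. Acod1 (4.93 to 8.95) and Ptgs2 (3.40 to 7.74) lie above 0 in every organ, while Arg1 lies on opposite sides of 0 in tumor (1.06) and liver (-3.71).

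Many genes of the wider classical list were higher in sorted cells. Of 32 classical activation genes, 11 of 28 tested were called higher in sorted tumor cells, 21 of 32 in spleen, 28 of 31 in liver and 14 of 29 in marrow, and 2, 2, 0 and 1 were lower. Of all genes 5.87, 20.2, 37.3 and 4.8% were called higher in the same order. Genes scarce in bulk tissue could pass the filter on low counts only through the sorted libraries. Il6 in tumor was such a gene, with at most 0.576 CPM in the 6 bulk tumors and a filter at 0.683 CPM. These counts, and the values of such genes, are therefore not read as support. Up to 3 leading genes were named per organ, so an organ not given for a gene can still show a rise. Il6 was among the leading higher genes in tumor (6.46 ± 0.79), spleen (6.48 ± 0.82) and marrow (3.49 ± 0.54). Tnf was among them in tumor (5.08 ± 0.35) and liver (7.88 ± 0.27). Cd14, the lipopolysaccharide co-receptor, was among them in spleen (5.30 ± 0.26) and marrow (4.24 ± 0.17). In all 13 sorted libraries Il6 had 3.116 to 88.16 CPM, against at most 0.9346 CPM in the 36 bulk libraries. Tnf had 12.97 to 85.94 CPM in sorted libraries. Its bulk levels reached 11.28 CPM in spleen, 11.63 CPM in marrow and 28.63 CPM in lymph node. Irf5 (-1.71 ± 0.35) and Irf8 (-1.50 ± 0.32), transcription factors of macrophages, were lower in sorted tumor cells. The list's median log2 fold change was 0.74 in tumor, 1.52 in spleen, 2.73 in liver and 0.46 in marrow, against -0.03, -0.04, 0.01 and -0.01 over all genes.

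Of 28 alternative activation genes, 2 of 23 tested were higher in sorted tumor cells, 9 of 25 in spleen, 15 of 23 in liver and 5 of 20 in marrow, with 2, 4, 1 and 0 lower. The medians were -1.35, 0.66, 1.94 and 0.01 in the same order. The leading higher genes were Egr2 (5.22 ± 0.40 in spleen, 6.68 ± 0.41 in liver, 4.06 ± 0.45 in marrow) and Klf4 (3.30 ± 0.20, 7.46 ± 0.26 and 1.83 ± 0.13), both also known as fast response genes. In spleen Il10 was among the leading genes (6.40 ± 0.68). Its level was 2.55 to 29.7 CPM in all 13 sorted libraries and at most 0.954 CPM in the 36 bulk libraries. With at most 0.565 CPM in the 6 bulk spleens and a filter at 0.743 CPM, Il10 could pass there only through the sorted libraries. The counts of the alternative list carry the same limit as those of the classical list. Mrc1, the mannose receptor of alternatively activated macrophages, was lower in sorted cells of tumor (-2.36 ± 0.44) and spleen (-1.30 ± 0.37). Sorted liver cells also had 8 of 8 dendritic cell, 7 of 7 T and natural killer cell and 5 of 5 B and plasma cell markers called higher than bulk liver, beside the cytokines Ifng (9.25 ± 1.11) and Il4 (10.24 ± 1.42). The tumor counts share the weakness of the member calls there, since leaving out 1 library left between 20 and 1935 of all genes called. Neither the difference between the classical and alternative lists nor the part of digestion in their values was tested.

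Over the 49 libraries the genes with the most similar order of levels differed between Acod1 and Ptgs2. Those most like Acod1 reached Spearman correlations of 0.65 (Nfil3), 0.65 (Il1a, a cytokine) and 0.65 (Vps37b), and those most like Ptgs2 0.91 (Ccnyl1), 0.90 (Ets2) and 0.88 (Zfand2a). Acod1 and Ptgs2 themselves had a correlation of 0.28. For Ptges they were Lox (0.88), Phlda3 (0.86) and Cpxm1 (0.85), for Arg1 Sema4g (0.96), Trf (0.95) and Gjb2 (0.95), and for Ido1 Ccdc39 (0.75) and Cacna2d1 (0.72). Over the 36 bulk libraries alone, the 3 genes most like a member shared 0 with the 3 over all libraries for Acod1, Nos2 and Ptges, 1 for Ptgs2, Retnla and Ido1, and 2 for Arg1 and Chil3. The libraries share mice, organs and depth, so these values are descriptions.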

How the data were processed

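RNA sequencing libraries of 6 mice were analysed, 36 from bulk tissue and 13 from sorted cells. For each gene the authors deposited expected counts, estimates that need not be whole (4.64 to 7.92% of values per library were not). Tools named by the submitters' processing notes were RSEM 1.3.1, STAR 2.7.9a, FastQC 0.11.9 and cutadapt 3.5, with the build mm10. The annotation release and the strand setting are not given in the sources used here. Of 55487 genes, 55141 matched a symbol and position in GENCODE M21 (GRCm38), from which gene coordinates were taken. RefSeq upstream sequences matched 5 of the 8 genes, and that of Ptges is not shown because its start lies far from the GENCODE start. No 2 replicate libraries were alike within sampling noise: the lowest chi-square per degree of freedom between a pair was 9.18.

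Rounded counts entered edgeR 4.0.16 under R 4.3.3. Genes had to pass filterByExpr at a minimum count of 10, libraries were scaled by TMM, and the two-sided quasi-likelihood test was adjusted by Benjamini and Hochberg over all genes tested, with a threshold of 0.05. Levels are CPM of the library total without TMM scaling, and log2 fold changes ± SE come from the fits. BP was compared with PBS in each organ, sorted cells with BP bulk tissue in 4 organs, each organ with the mean of the others in PBS mice, and each organ's difference with the mean difference of the other organs. Organs of 1 mouse are not independent, which these last fits do not model. Sorted and bulk libraries of the same number came from the same mouse, so those samples are paired, and fits with a replicate block are given beside results they change. Correlations of same-number deviations ran from -0.14 to 0.66 there. The scripts were tested on simulated counts. Intervals and limits from counts cover counting error only.

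The 8 genes, 7 pathway lists and 19 marker lists were chosen with earlier results of these data known. Named were the 8 genes, close relatives, up to 3 genes per list, direction and comparison with the largest called change (mean log2 CPM not under 2), and the 3 genes with the highest Spearman correlation (log2 CPM with a pseudocount of 0.5). Alternatives were DESeq2 1.42.0, its size factors, no filter, the replicate block, the spread over 48 libraries, mitochondrial genes left out, TMM levels over 49 libraries and each library or mouse left out. A further fit of the PBS organs, which had not been planned, left out 2 libraries together: lung of PBS mouse 1 and lymph node of PBS mouse 2. It kept 29 calls and lost 1, that of Nos2 in tumor (adjusted p = 0.0637, edgeR). The NanoString experiment was not analysed here, and 1 gene most like Ido1 is not reported here.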

Additional observations from a re-analysis of the deposited data

Results flagged for a closer look

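The difference between sorted cells and bulk tissue varied between organs for 6 genes (edgeR, interaction terms adjusted over all genes, log2 scale). In tumor it was below the mean of the other organs for Nos2 (-3.65), Ptgs2 (-3.45) and Retnla (-4.80), where 23.8% of 17281 genes were called. In spleen it was above for Acod1 (2.91) and Ptgs2 (2.34), where 18.2% were called. In liver it was above for Nos2 (3.43) and Chil3 (1.36) and below for Arg1 (-3.86), where 53.7% were called, and in marrow 0 members were called, where 15.0% of genes were. Between the BP effects, that of Retnla in tumor stood above the other organs (6.25). Of all these terms only that of Arg1 in liver kept its call in every alternative. Each of the others lost its call when some mouse was left out.

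The sorted lymph node library of BP mouse 2 enters no comparison. It held 15.07 CPM of Acod1 and 39.82 CPM of Ptgs2, above the highest of the 6 bulk lymph nodes (0.961 and 3.41 CPM) and above the 0.312 CPM that a count of 0 allows.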

How the results depend on the processing

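Checked were the member results called in the full fits and some uncalled ones described above. They were 15 for sorted cells against bulk, 30 for PBS organs, 9 for differences between organs and 3 for BP against PBS. None of these values changed sign. The other uncalled results of members were not checked. Over the alternatives, 152 of 180 checks of members in sorted cells against bulk kept their call, 15 lost and 13 gained one. For organs of PBS mice 188 of 210 were kept and 22 lost, for differences between organs 45 of 65 and 20 lost, and for BP against PBS 30 of 33, with 3 gained. Members called in BP against PBS tumor went from 0 to 1 with DESeq2 and 2 with the spread over 48 libraries. In sorted spleen they went from 2 to 4 with DESeq2. In the difference of the BP effect in tumor they went from 1 to 2 without a filter, and in that of the sorted spleen from 2 to 1 without a filter and 1 with the replicate block. Leaving out a library or mouse gave 0 to 4 members for sorted tumor (3 in the full fit), 1 to 2 for PBS spleen (3), 0 to 2 for the BP effect in tumor (1), 0 to 1 for that in lymph node (0), 0 to 3 for the sorted effect in tumor (3), 0 to 0 in spleen (2) and 1 to 2 in liver (3).

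All genes called in BP against PBS tumor went from 0 to 182 with DESeq2 and 1482 with the spread over 48 libraries. In liver 3 became 49 without a filter and 34 with DESeq2, in marrow 0 became 27 and 3, and in lymph node 0 became 11 with DESeq2. Sorted tumor went from 1321 to 625 with the replicate block, 3198 with DESeq2 and 5770 with the spread over 48 libraries, and sorted marrow from 1044 to 2719 with the block and 373 with the spread over 48 libraries. In bulk BP against PBS the mice differ, and same-number correlations of -0.26 to 0.49 do not pair them. Of 128 group levels, 26 moved by more than 1 SD under TMM scaling over 49 libraries, for example Acod1 in sorted liver cells to 97.5 CPM. The causes were not tested. Acod1, Nos2, Ptgs2 and Ido1 had under 10 counts in many bulk libraries, which limits what their bulk levels can show.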
